A study of Mus musculus with 9 samples.

Results

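Laminins, nidogens and perlecan make up most of the non-collagen scaffold of the basement membrane, and the 10 genes described here are the laminin chains Lama2, Lama3, Lama4, Lama5, Lamb1, Lamb2 and Lamc1, the nidogens Nid1 and Nid2, and Hspg2, which encodes perlecan. They were chosen by name, with no threshold on a measured value, and all 10 were found among the 23018 genes of the deposited count table and passed the filter on low counts. RNA was measured in lymphatic endothelial cells (LECs, the cells that line lymphatic vessels), sorted from the meninges, the diaphragm or the skin by the presence of CD31 and podoplanin and the absence of CD45. Each tissue gave 3 libraries, all from untreated wild-type C57BL/6 males aged 10 weeks, and no library carried a transgene. Whether the libraries stem from different animals, or from pooled ones, is not stated in the labels, and the p-values therefore cover only the variation among the 9 libraries, which may be technical.

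A laminin is a trimer of 1 alpha, 1 beta and 1 gamma chain that polymerises under the cell surface and binds integrins and dystroglycan. The gamma chain encoded by Lamc1 binds nidogen, nidogen bridges laminin to collagen IV, and perlecan, a proteoglycan with heparan sulfate chains, ties the sheet together and holds growth factors. Laminins with alpha4 or alpha5 are the usual endothelial forms, alpha2 is typical of muscle and of Schwann cells, and alpha3 is typical of epithelia. Initial lymphatic vessels are known for a thin, broken basement membrane, whereas collecting lymphatics have a continuous one.

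The balance of the 2 beta chains set the meningeal libraries apart from the other 6, so the sequences just upstream of the 2 beta genes are shown before their values. Both were read from the RefSeq promoter table (build GRCm38.p6, plus strand), and each run ends before the first annotated exon base of its gene (Lamb1 at chr12:31265043-31265233, Lamb2 at chr9:108479612-108479735). Capitals mark matches on either strand to 1 of 4 motifs, the GC box (GGGCGG, which reads as CCGCCC from the opposite strand), the TATA box (TATAAA), the CCAAT box (those letters) and the AP-1 site (TGANTCA).
Lamb1: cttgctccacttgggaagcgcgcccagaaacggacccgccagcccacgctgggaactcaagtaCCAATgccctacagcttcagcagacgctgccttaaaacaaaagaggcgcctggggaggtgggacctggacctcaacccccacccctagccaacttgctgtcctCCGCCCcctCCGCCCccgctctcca
Lamb2: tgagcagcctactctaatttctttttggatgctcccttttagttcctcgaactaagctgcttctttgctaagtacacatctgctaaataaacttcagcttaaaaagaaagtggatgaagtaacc
The Lamb1 run of 191 bases was 63.9% G or C and held 2 GC boxes and 1 CCAAT box, while the Lamb2 run of 124 bases was 37.9% G or C and held none of the 4 motifs. Of the 10 genes 6 were matched in the RefSeq table. In the full window of 300 bases (250 before the start, 50 after it), a GC box was found for 5 of these 6 (Hspg2, Lama2, Lama5, Lamb1 and Nid1), against 35.7% of 32851 promoters. A CCAAT box was found for Lamb1 and Nid1 (37.4% of all promoters), and neither a TATA box (13.6%) nor an AP-1 site (7.81%) was found for any of the 6. These matches describe letters only.

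Total counts ran from 26075366 to 34592850 per library, and levels are given as CPM, the usual depth-scaled count, after TMM scaling. Summed over 8 LEC markers, levels were 6345 to 15130 CPM in meningeal libraries, 13810 to 19730 in diaphragm and 19680 to 20450 in skin. The 10 fibroblast markers summed to 1859, 9052 and 8885 CPM in Meninges replicates 1 to 3, against 769.4 to 1928 in the other 6 libraries. The 9 mural cell markers summed to 532.7 to 1343 CPM in meninges, 298.1 to 499.2 in diaphragm and 39.29 to 297.4 in skin. On the fibroblast list Meninges replicates 2 and 3 therefore stood apart, and Meninges replicate 1 was close to the diaphragm libraries. Other lists did set Meninges replicate 1 apart. Its 5 bone-forming markers summed to 183.3 CPM, against at most 13.39 in any diaphragm or skin library. Its sum of 8 blood endothelial markers, 2641 CPM, was the highest of the 9 libraries. The 5 mesothelial markers summed to 1188, 41.02 and 79.51 CPM in Diaphragm replicates 1 to 3. In bulk RNA, fewer cells of a type and less RNA per cell cannot be told apart.

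The 10 genes together took 2635 to 3278 CPM in meningeal libraries, 3409 to 3917 in diaphragm and 3347 to 3478 in skin, so that each meningeal sum lay below each of the other 6. By gene, the laminin chains Lama4, Lamb1 and Lamc1 stood lower in all 3 meningeal libraries than in any other library. The opposite order, meninges above skin in every library, was seen for Lama2, Lama3, Lamb2 and Hspg2. None of these differences passed edgeR's quasi-likelihood test at an adjusted p of 0.05, and the plot of levels by library shows how unequal the spread was between genes.

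**Figure D1:**
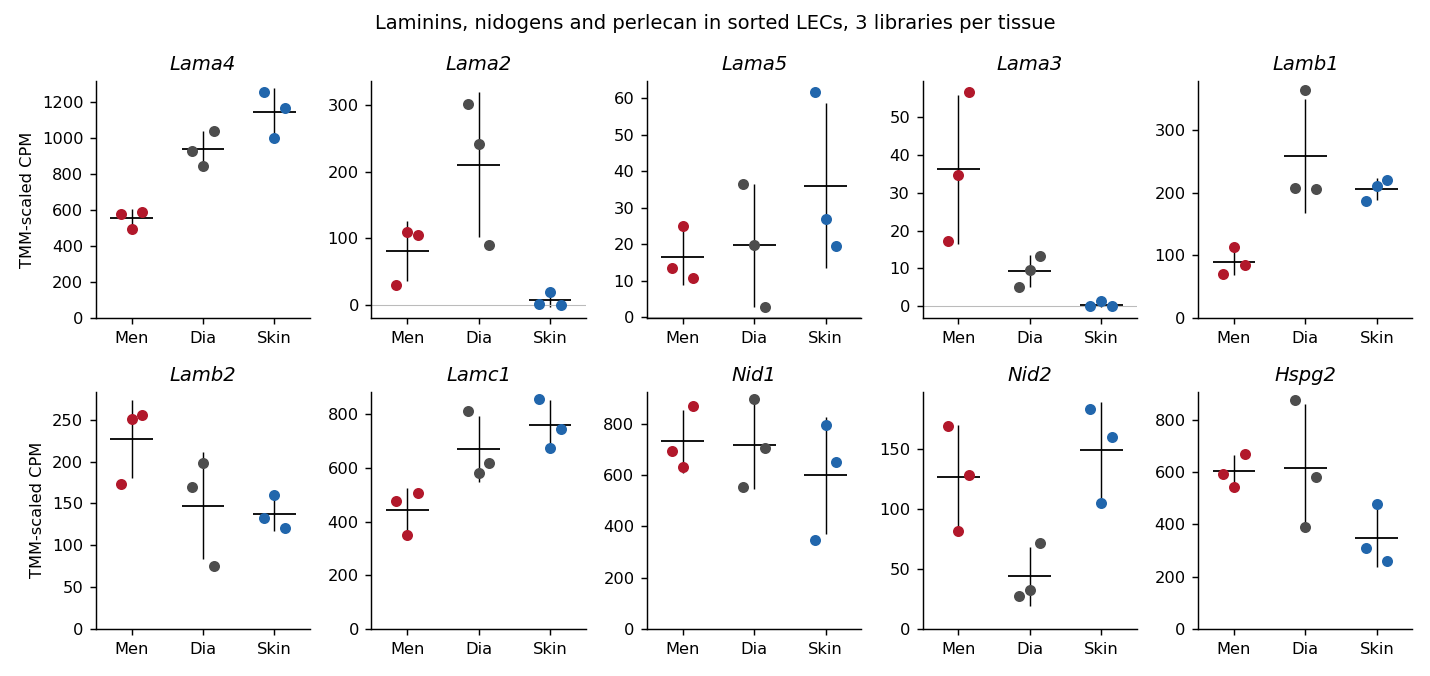
TMM-scaled CPM (y axis, linear, 1 scale per gene) of the 10 genes in meninges (Men), diaphragm (Dia) and skin; points are libraries, horizontal bars the mean and vertical bars the SD (n = 3). Lama4 lay between 494 and 589 CPM in meninges and between 848 and 1260 in the other 6 libraries.

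Lama4 encodes the alpha4 chain of endothelial laminins and was the alpha chain with the highest level per length in every library. It measured 582, 494 and 589 CPM in Meninges replicates 1, 2 and 3. The diaphragm libraries gave 930, 848 and 1040 CPM, and the skin libraries 1260, 1000 and 1170. The 3 meningeal values lay close together and below all 6 others, whereas diaphragm and skin overlapped. Means were 555 ± 53.1, 940.8 ± 98.1 and 1148 ± 132 CPM (SD, n = 3 each), and the coefficients of variation of 9.56%, 10.4% and 11.5% were small beside those of the other alpha chains. The log2 fold change was -0.76 (standard error 0.25, edgeR adjusted p = 0.318) for meninges against diaphragm and -1.05 (standard error 0.25, edgeR adjusted p = 0.0602) for meninges against skin. Those 2 comparisons share the meningeal libraries. Diaphragm against skin gave -0.29 (standard error 0.25, edgeR adjusted p = 0.726). The LEC marker sum was lower in Meninges replicates 2 and 3 (6345 and 10960 CPM) than in the 6 diaphragm and skin libraries, and that of Meninges replicate 1 (15130 CPM) lay within the diaphragm range. In Meninges replicate 1, Prox1, Lyve1, Pecam1 and Reln (1330, 2620, 553 and 2640 CPM) still lay below every diaphragm and skin library. Flt4, Pdpn, Mmrn1 and Ccl21a did not. The part of LEC content in the Lama4 difference was not tested.

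Lama5 encodes the alpha5 chain, found in the other main endothelial laminin, and was scarce in these cells. It measured 13.5, 25.0 and 10.8 CPM in meninges, 36.5, 19.9 and 2.65 in diaphragm and 61.8, 26.9 and 19.6 in skin. All 3 tissues overlapped, and the spread within a tissue (45.7%, 86.0% and 62.6% of the mean) was as wide as the gaps between tissues. Its log2 fold changes were -0.26 (standard error 1.04), -1.13 (1.05) and -0.87 (1.05) for meninges against diaphragm, meninges against skin and diaphragm against skin. Per kilobase of exon, Lama5 stood at 1.45 ± 0.66, 1.73 ± 1.49 and 3.17 ± 1.98 CPM, beside 46.0 ± 4.4, 78.0 ± 8.13 and 95.1 ± 10.9 for Lama4 (SD, n = 3 each).

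Lama2, the alpha chain of muscle and Schwann cell laminin, was highest in the diaphragm by its mean and lowest in skin. The diaphragm libraries held 301, 242 and 89.5 CPM and the meningeal libraries 29.7, 110 and 105. The skin libraries held 2.21, 20.3 and 0.0457 CPM, from 57, 501 and 1 counts. Every diaphragm and meningeal value lay above every skin value, and diaphragm and meninges overlapped. Skin replicate 3, with 1 count, lay below the limit of 3 counts, which corresponds to 0.0793 to 0.137 CPM per library and covers counting error only. The log2 fold change was 4.81 (standard error 1.32, edgeR adjusted p = 0.229) for diaphragm against skin, 3.43 (1.24, adjusted p = 0.227) for meninges against skin and -1.37 (1.14, adjusted p = 0.847) for meninges against diaphragm. Without Skin replicate 2, edgeR called Lama2 in both comparisons with skin, at log2 fold changes of 7.53 for diaphragm and 6.15 for meninges.

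Marker sums of other cell types were set beside Lama2. Of the 6 Schwann cell markers, summed levels were 78.08 to 232 CPM in meninges, 48.63 to 260.9 in diaphragm and 1.417 to 29.23 in skin, and the highest skin sum was that of replicate 2, which also had the highest Lama2 in skin. Meninges replicates 1 and 3 had Schwann sums of 140.9 and 78.08 CPM, beside 29.7 and 105 CPM of Lama2. Sums over 8 skeletal muscle markers were 386.6 to 1088 CPM in diaphragm against 22.66 to 35.5 in meninges and 68.97 to 269.2 in skin. The muscle sums were thus lower in meninges than in skin. Outside the diaphragm they were mostly Ttn, at 17.1, 35.2 and 23.8 CPM in meninges and 80.4, 55.8 and 269 in skin. Fibroblast markers summed to 1859, 9052 and 8885 CPM in Meninges replicates 1 to 3, beside 29.7, 110 and 105 CPM of Lama2. Diaphragm replicate 1 had 1796 CPM of fibroblast markers and 301 CPM of Lama2. Mesothelial markers summed to 1188 CPM in Diaphragm replicate 1 and to 0 in Meninges replicate 1. The part of these cells in the Lama2 difference was not tested.

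Lama3 encodes the alpha chain of an epithelial laminin. It measured 17.2, 34.8 and 56.8 CPM in meninges and 5.09, 9.58 and 13.3 in diaphragm. In skin it was found in replicate 2 alone, at 1.34 CPM (33 counts), and the other skin libraries had no count. The 3 tissues therefore formed 3 separate bands. Fitted log2 fold changes were 1.96 (standard error 1.64, edgeR adjusted p = 0.849) for meninges against diaphragm, 6.33 (2.0, adjusted p = 0.181) for meninges against skin and 4.37 (1.83, adjusted p = 0.386) for diaphragm against skin. Of 6 epidermal markers 5 were in the table, and their sum was 0 CPM in Meninges replicate 1, Diaphragm replicates 1 and 2 and Skin replicate 1. The highest epidermal sum, 151.5 CPM, was in Skin replicate 2, where Lama3 was at 1.34 CPM. Without Skin replicate 2, edgeR called Lama3 for meninges against skin, with no count left in skin. Meninges replicates 2 and 3, which had the most Lama3, had epidermal sums of 49.28 and 24.24 CPM, with Epcam as the main marker (43.8 and 24.2 CPM). The part of epithelial cells in the Lama3 difference was not tested.

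**Figure D2:**
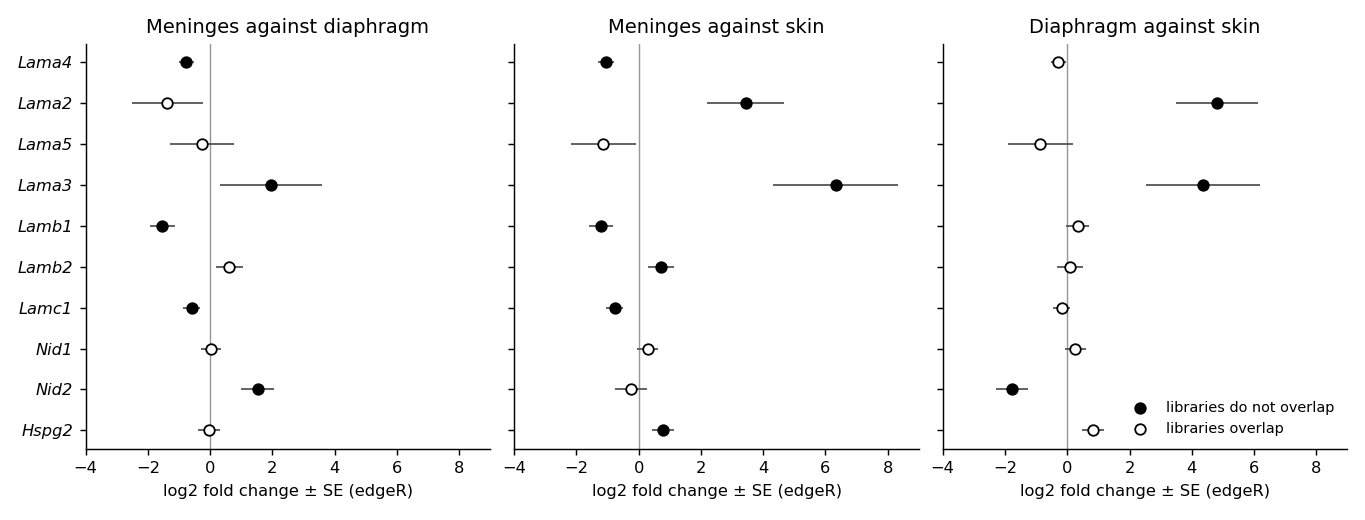
Log2 fold change (x axis, ± standard error, edgeR) of each gene in the 3 comparisons; filled points mark genes whose libraries do not overlap between the tissues. Lama4, Lamb1 and Lamc1 are filled and left of 0 in both meningeal panels, and Lama2 and Lama3 are the points farthest right in the panels against skin.

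Among the beta chains, Lamb1 set the meningeal libraries apart as Lama4 did among the alpha chains. Lamb1, which encodes the beta1 chain of most laminins, measured 71.2, 113 and 84.5 CPM in meninges. It stood at 208, 363 and 205 CPM in diaphragm and at 187, 211 and 220 in skin. No meningeal library reached the lowest value of either other tissue, and diaphragm and skin overlapped. Means were 89.6 ± 21.5, 259 ± 90.4 and 206 ± 17.3 CPM (SD, n = 3 each), 2.89-fold lower in meninges than in diaphragm and 2.30-fold lower than in skin by the fitted values. The log2 fold changes were -1.53 (standard error 0.39, edgeR adjusted p = 0.151) and -1.20 (0.38, adjusted p = 0.183), and diaphragm against skin gave 0.33 (0.38, adjusted p = 0.817).

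Lamb2 encodes the beta2 chain, found at the neuromuscular junction, in the kidney filter and in vessel walls. It measured 173, 251 and 256 CPM in meninges, 169, 198 and 74.9 in diaphragm and 132, 160 and 121 in skin. Every meningeal value lay above every skin value, while the lowest meningeal library overlapped the diaphragm. The log2 fold change was 0.62 (standard error 0.42, edgeR adjusted p = 0.757) for meninges against diaphragm, 0.72 (0.42, adjusted p = 0.515) for meninges against skin and 0.10 (0.42, adjusted p = 0.97) for diaphragm against skin. Lamb2 differences were therefore about as large as the spread between libraries.

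Because the 2 beta chains differed in opposite directions, their balance was set out per library and per kilobase of exon. In meninges Lamb1 was 7.18, 11.4 and 8.52 CPM per kilobase and Lamb2 was 28.5, 41.3 and 42.2. In diaphragm the values were 21, 36.6 and 20.6 for Lamb1 and 27.9, 32.5 and 12.3 for Lamb2, and in skin they were 18.8, 21.3 and 22.2 for Lamb1 and 21.7, 26.3 and 19.9 for Lamb2. Lamb2 exceeded Lamb1 in all 3 meningeal libraries, and neither chain led throughout in diaphragm or skin. The summed beta chain level itself overlapped, at 35.6 to 52.7 CPM per kilobase in meninges, 33.0 to 69.2 in diaphragm and 40.5 to 47.6 in skin.

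**Figure D3:**
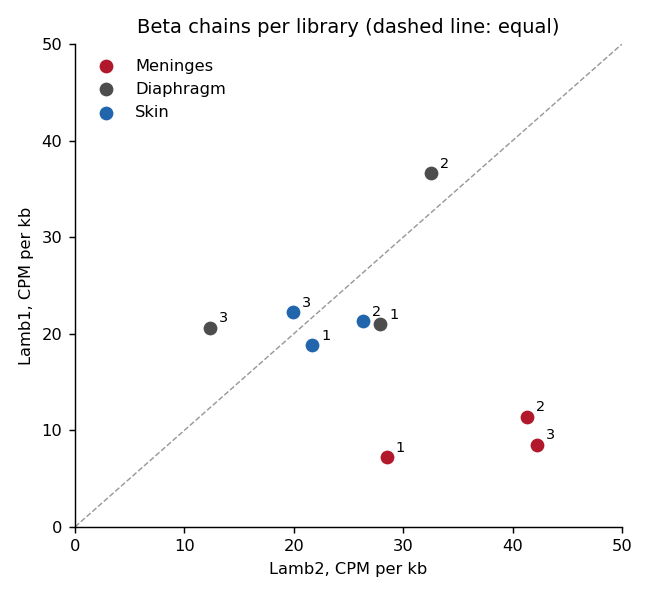
Lamb1 (y axis) against Lamb2 (x axis), both in CPM per kilobase of exon, 1 point per library with its replicate number; the dashed line marks equal levels. The 3 meningeal points lie far below the line, with ratios of Lamb1 to Lamb2 from 0.202 to 0.276, and the other 6 lie near it or above it.

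As a share of all beta chain signal per kilobase (Lamb1, Lamb2 and Lamb3), Lamb1 made up 20.1%, 21.6% and 16.8% in meninges. The share was 43.0%, 52.9% and 62.6% in diaphragm and 46.4%, 44.7% and 47.7% in skin. The ratio of Lamb1 to Lamb2 was 0.202 to 0.276 in meninges, 0.754 to 1.68 in diaphragm and 0.810 to 1.12 in skin. With the longest annotated transcript as the length, these ranges became 0.321 to 0.439, 1.20 to 2.66 and 1.28 to 1.77, so that Lamb1 was then the higher chain in all diaphragm and skin libraries. The separation of meninges from the rest does not depend on length, which scales all libraries alike. These shares carry no test, since the beta balance was singled out after the levels had been seen.

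The fibroblast marker sums were set beside this share. Meninges replicate 1, at 1859 CPM of fibroblast markers, had a Lamb1 share of 20.1%, and Meninges replicates 2 and 3, at 9052 and 8885 CPM, had 21.6% and 16.8%. Diaphragm replicate 2, at 1928 CPM, had 52.9%. The 8 meningeal fibroblast markers summed to 97.33, 436.7 and 272 CPM in Meninges replicates 1 to 3. Their sums were 5.408 to 42.12 CPM in diaphragm and 39.17 to 145.3 in skin. Slc47a1, Alx4, Zic4, Foxd1 and Slc6a13 had counts in every meningeal library and in no other. Foxc1 had counts in every library and Ranbp3l in skin alone. The 9 mural cell markers were above all other libraries in each meningeal library, by a small margin in replicate 1 (532.7 CPM against at most 499.2). The part of fibroblasts and of mural cells in the beta balance was not tested.

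**Figure D4:**
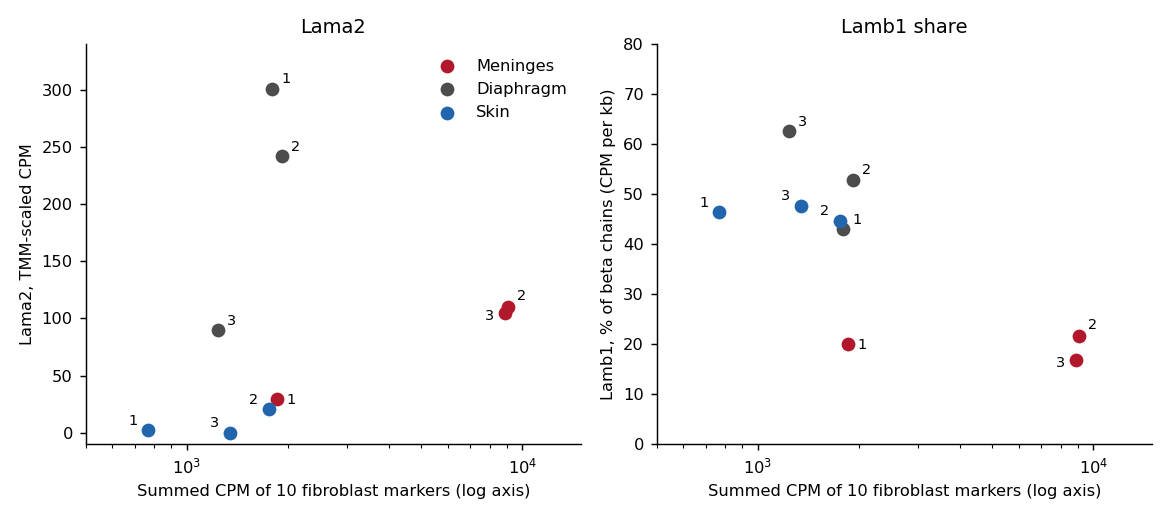
Lama2 in TMM-scaled CPM (left) and Lamb1 as a percentage of beta chain CPM per kilobase (right) against the summed CPM of 10 fibroblast markers (x axis, log scale), 1 numbered point per library. Meninges replicate 1 sits at 1859 CPM among the diaphragm and skin libraries on the x axis, with a Lamb1 share of 20.1%.

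Lamc1 encodes the gamma1 chain, shared by nearly all laminins, and carries the nidogen-binding site. It measured 475, 349 and 506 CPM in meninges, 811, 579 and 619 in diaphragm and 858, 675 and 745 in skin. The meningeal libraries were again the 3 lowest, and diaphragm and skin overlapped. For Lamc1 the log2 fold change was -0.59 (standard error 0.28, edgeR adjusted p = 0.511) against diaphragm and -0.78 (0.28, adjusted p = 0.23) against skin, and -0.18 (0.28, adjusted p = 0.88) between diaphragm and skin. Lamc1 made up 97.9% to 99.7% of gamma chain signal per kilobase as the mean of each tissue, so the gamma position was filled by 1 gene throughout.

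The alpha position was more mixed. Summed alpha chain signal was 53.2 to 61.6 CPM per kilobase in meninges, 87.7 to 99.2 in diaphragm and 87.0 to 110 in skin. Of that sum Lama4 took 89.5%, 76.9% and 79.2% in meninges, 77.7%, 80.1% and 92.6% in diaphragm and 95.0%, 95.7% and 98.3% in skin. Every skin library was thus above the other 6. Lama2 took 3.37% to 12.6% in meninges and 5.86% to 18.6% in diaphragm, and at most 1.43% in skin. Lama3 took 2.97% to 8.58% in meninges and 0.477% to 1.33% in diaphragm, and at most 0.143% in skin.

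**Figure D5:**
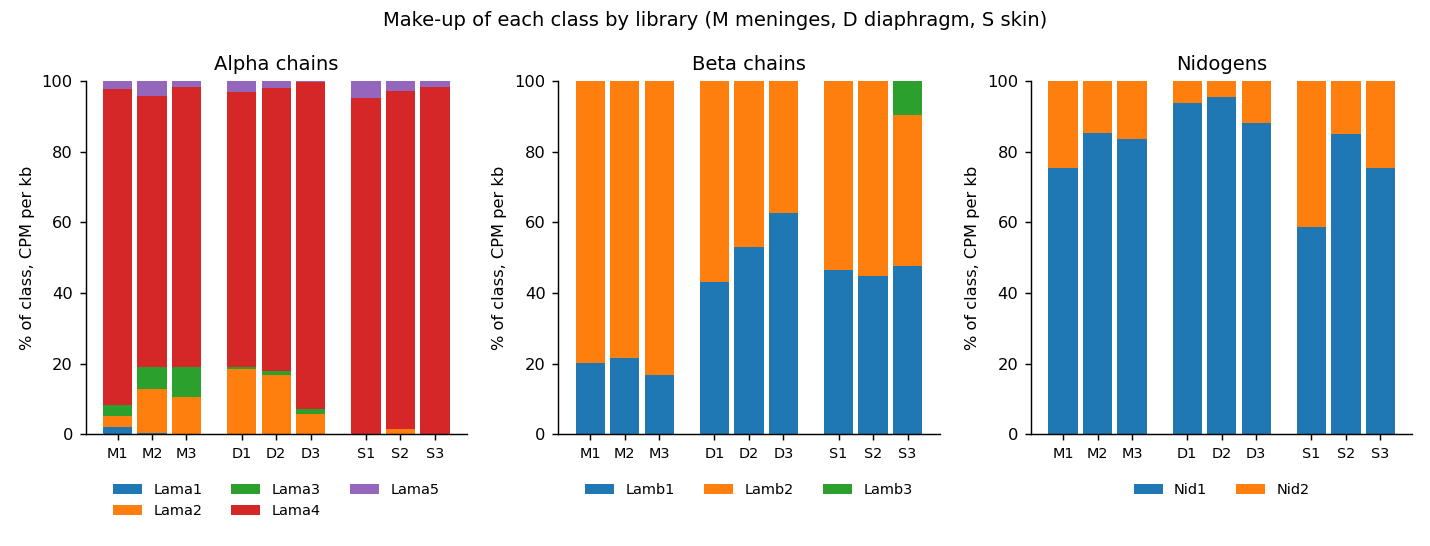
Share of each chain in the alpha, beta and nidogen signal (y axis, percent of CPM per kilobase), 1 bar per library of meninges (M), diaphragm (D) and skin (S). Lamb1 is 16.8% to 21.6% of beta chains in meninges and 43.0% to 62.6% elsewhere, and the green block in Skin replicate 3 is Lamb3 at 9.52%.

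Nid1, the main nidogen, was among the most abundant of the 10 genes per length in every tissue, at 105.5 ± 17.8, 103.5 ± 24.9 and 86.3 ± 32.9 CPM per kilobase in meninges, diaphragm and skin (SD, n = 3 each). Its library values were 696, 632 and 870 CPM in meninges, 552, 898 and 707 in diaphragm and 348, 796 and 653 in skin, and all tissues overlapped. Its log2 fold changes of 0.03, 0.29 and 0.26 had a standard error of 0.33 each, for meninges against diaphragm, meninges against skin and diaphragm against skin. Of the laminin-binding linkers, then, the major gene differed between tissues by less than its spread.

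Nid2, the second nidogen, was lowest in the diaphragm. It measured 27.5, 32 and 71.9 CPM in diaphragm, 169, 81.5 and 128 in meninges and 183, 105 and 160 in skin. Each diaphragm library lay below each of the others, while meninges and skin overlapped. The log2 fold change was 1.53 (standard error 0.52, edgeR adjusted p = 0.329) for meninges against diaphragm, -1.77 (0.52, adjusted p = 0.277) for diaphragm against skin and -0.24 (0.51, adjusted p = 0.922) for meninges against skin. Nid1 accordingly made up 88.0% to 95.4% of nidogen signal per kilobase in diaphragm, 75.5% to 85.2% in meninges and 58.7% to 84.9% in skin. In the GENCODE annotation 8.45% of the exon bases of Nid2 overlap the gene Rtraf on the opposite strand, and no source used here says whether counting used strand. Antisense genes overlap 3.86% of Lama2, 1.83% of Lama3 and 2.06% of Nid1 in the same way.

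Hspg2 measured 594, 545 and 671 CPM in meninges, 876, 391 and 583 in diaphragm and 311, 478 and 260 in skin. Every meningeal library lay above every skin library, and the diaphragm libraries spread across both. The log2 fold change was -0.03 (standard error 0.35, edgeR adjusted p = 0.995) for meninges against diaphragm, 0.79 (0.35, adjusted p = 0.329) for meninges against skin and 0.82 (0.35, adjusted p = 0.389) for diaphragm against skin. Perlecan transcripts varied least in meninges, with means of 603.5 ± 63.6 CPM there, 350 ± 114 for the skin and 617 ± 244 for the diaphragm (SD, n = 3 each).

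For meninges against diaphragm, 4 of the 10 genes had a positive and 6 a negative log2 fold change, with a median of -0.15 beside 0.05 over all 14831 genes tested. Groups did not overlap for 2 genes that stood higher in meninges (Lama3 and Nid2) and 3 that stood lower (Lama4, Lamb1 and Lamc1), where the shares of all genes were 10.4% and 6.70%. edgeR called 0 of the 10, against 0.344% of all genes, and 3 had an unadjusted edgeR p under 0.05, against 10.1%. The DESeq2 Wald test called 1 (Lamb1, adjusted p = 0.0154, with 0.0154 to 1 over all alternatives), against 4.48% of the 13939 genes with a DESeq2 adjusted p. limma voom with quality weights called 1 (Lama4, adjusted p = 0.0458, with 0.0458 to 1 over all alternatives), against 1.35%.

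For meninges against skin, 5 fold changes were positive and 5 negative, with a median of 0.02 beside 0.08 over all genes. Groups did not overlap for 4 genes that stood higher in meninges (Lama2, Lama3, Lamb2 and Hspg2) and 3 that stood lower (Lama4, Lamb1 and Lamc1), beside 12.9% and 7.34% of all genes. edgeR called 0 of the 10, against 1.32% of genes, and 6 had an unadjusted edgeR p under 0.05, against 13.8%. DESeq2 called 3, Lama3 (adjusted p = 0.000414), Lama4 (0.0152) and Lama2 (0.0225), against 8.02% of the 13664 genes with a DESeq2 adjusted p. limma voom called 2, Lama4 (adjusted p = 0.00759) and Lama3 (0.0338), against 2.79%. Over all alternatives adjusted p ran from 0.00759 to 0.71 for Lama4, from 0.000414 to 0.917 for Lama3 and from 0.00249 to 0.934 for Lama2.

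For diaphragm against skin, 6 fold changes were positive and 4 negative, with a median of 0.18 beside 0.01 over all genes. Groups did not overlap for 2 genes that stood higher in diaphragm (Lama2 and Lama3) and 1 that stood lower (Nid2), beside 7.54% and 5.95% of all genes. edgeR called 0 of the 10, against 0.0405% of genes, and 4 had an unadjusted edgeR p under 0.05, against 11.8%. DESeq2 called 3, Lama2 (adjusted p = 0.000462), Nid2 (0.0225) and Lama3 (0.0458), against 5.91% of the 13401 genes with a DESeq2 adjusted p. With limma voom 0 were called, against 0.00674% of all genes. Over all alternatives adjusted p ran from 6.24e-05 to 0.422 for Lama2, from 0.0225 to 0.517 for Nid2 and from 0.0458 to 0.796 for Lama3.

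Outside the 10, other laminin chains were also measured. Lama1, an alpha chain of embryonic basement membranes and of the pial surface, had 327, 46 and 47 counts in the meningeal libraries and no count in the other 6. Taking 3 counts per group as the floor, it was at least 117-fold higher in meninges than in diaphragm and at least 104-fold higher than in skin. Meninges replicate 1 carried most of this, and without it, a check added after seeing the data, the bounds were 36.4-fold and 32.3-fold. edgeR did not call Lama1 in any comparison, with an adjusted p of 0.334 for meninges against diaphragm. Lamb3, the beta chain of an epithelial laminin and chosen here after its values were seen, reached 29.2 CPM in Skin replicate 3 and at most 0.265 CPM in any other library.

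Of 18 further basement membrane genes, edgeR called 0 in each comparison, with 4, 5 and 3 at an unadjusted p under 0.05 for meninges against diaphragm, meninges against skin and diaphragm against skin. DESeq2 called 3, 3 and 2 of them and limma voom 1, 0 and 0. Of all genes, edgeR called 0.344%, 1.32% and 0.0405% in the same order, and 10.1%, 13.8% and 11.8% had an unadjusted edgeR p under 0.05. DESeq2 called 4.48%, 8.02% and 5.91% of the genes to which it gave an adjusted p, and limma voom 1.35%, 2.79% and 0.00674% of all genes. Median log2 fold changes of the 18 were -0.04, 0.20 and 0.09. Sparc, a collagen-binding protein made in quantity by fibroblasts and bone-forming cells, measured 1590, 3880 and 4420 CPM in meninges against 303 to 712 in diaphragm and 57.4 to 801 in skin. Its log2 fold change was 2.74 (edgeR adjusted p = 0.159) against diaphragm and 2.78 (adjusted p = 0.0748) against skin. The 2 highest values were in the 2 meningeal libraries with the most fibroblast marker signal, and the part of fibroblasts in the Sparc difference was not tested. Col4a1, the collagen IV chain to which nidogen links laminin, measured 344, 198 and 276 CPM in meninges, 535, 345 and 372 in diaphragm and 347, 286 and 507 in skin. Meninges lay below diaphragm by the narrowest of margins (344 against 345) and overlapped skin.

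Of 7 laminin receptors, edgeR called 0 in each comparison, with 3, 2 and 4 at an unadjusted p under 0.05 in the same order. DESeq2 called 0, 2 and 1 and limma voom 1, 2 and 0. Of all genes, 10.1%, 13.8% and 11.8% had an unadjusted edgeR p under 0.05. DESeq2 called 4.48%, 8.02% and 5.91% of the genes to which it gave an adjusted p, and limma voom 1.35%, 2.79% and 0.00674% of all genes. Itgb1, the beta1 integrin subunit, measured 545, 272 and 628 CPM in meninges, 628, 587 and 615 in diaphragm and 338, 433 and 280 in skin. Dag1, which encodes dystroglycan, stood at 137, 258 and 241 CPM in meninges, 570, 432 and 307 in diaphragm and 131, 184 and 149 in skin, highest in the diaphragm in every library. Itga6 and Itgb4, which pair as the laminin-binding integrin alpha6beta4 and were picked after their values were seen, were the 2 receptors called by both DESeq2 and limma voom for meninges against skin. Itga6 measured 147, 47.4 and 142 CPM in meninges, 273, 370 and 259 in diaphragm and 320 to 428 in skin. Its log2 fold change for meninges against skin was -1.73 (edgeR adjusted p = 0.072). Itgb4 measured 46.5, 16.6 and 41.6 CPM in meninges, 36.3, 131 and 33.3 in diaphragm and 176 to 244 in skin. Its log2 fold change for meninges against skin was -2.61 (edgeR adjusted p = 0.0645). The diaphragm libraries overlapped meninges for Itgb4 and lay below every skin library. For Itga6 and Itgb4, the lowest value was in Meninges replicate 2, the library with the lowest LEC marker sum (6345 CPM). Meninges replicate 1, with an LEC marker sum of 15130 CPM, had 147 CPM of Itga6 and 46.5 of Itgb4. Prox1, Lyve1, Pecam1 and Reln, but not the other LEC markers, were lower in that library than in every diaphragm and skin library. The part of LEC content in these differences was not tested.

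Among 6828 genes of at least moderate level, those whose log2 CPM followed Lama4 most closely over the 9 libraries included Ugcg and Glis3, with Pearson r of 0.989 and 0.986. For Lamc1 they were Ppp1r2 (0.949), Mcu (0.944) and Ptpre (0.941), and for Nid1 they were Adam17 (0.950), Lrrc45 (0.947) and Rnf130 (0.939). These correlations describe 9 libraries that differ in tissue and in cell make-up.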

How the data were processed

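The authors deposited read counts per Ensembl gene, made with FastQC, STAR and HTSeq on mm9 per the submitters' processing notes. Not given in the sources used here were versions, annotation, strand setting and the handling of multiply mapped reads. Per the labels' protocols, RNA was isolated with Arcturus PicoPure and amplified with a NuGEN Ovation kit. Of 23018 genes, 14831 passed filterByExpr. They were scaled by TMM and tested with edgeR 4.0.16 (R 4.3.3, glmQLFit and glmQLFTest, 1 mean per tissue, 9 libraries together), with Benjamini-Hochberg adjustment over all genes and a threshold of 0.05. The common biological coefficient of variation was 1.243. Counts of replicates differed by more than sampling noise (266.1 to 436.6 for chi-square divided by its degrees of freedom). Levels per kilobase divide CPM by the exon union of GENCODE M21 on GRCm38, a build other than that of the files. Lists without a called gene are represented by their 2 most abundant genes. Adipocyte markers and Dsg3 were not analysed here. DESeq2 1.42.0, limma 3.58.1, other filters and scalings, a replicate block and each library left out were alternatives. The edgeR test was tested on simulated data. The 10 genes and all lists were chosen with earlier results of these data known. Values of some genes the naming rule takes are not reported here.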

Additional observations from a re-analysis of the deposited data

How the results depend on the processing

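With edgeR, 0 of the 10 genes were called in each comparison, and so they were under DESeq2 size factors, a stricter filter (50 counts in 3 libraries), fits with 2 tissues alone and the replicate block (which called 70, 231 and 16 of all genes for meninges against diaphragm, meninges against skin and diaphragm against skin, beside 51, 196 and 6). In the same order, DESeq2 called 1, 3 and 3 of the 10 (625, 1096 and 792 of all genes) and limma voom 1, 2 and 0 (200, 414 and 1). Without a filter on low counts, 3 were called for meninges against skin (Lama2, Lama3 and Lama4) and 1 for diaphragm against skin (Lama2), among 298, 610 and 305 genes in all. With 1 library left out, 0 to 2 were called for meninges against skin and 0 to 1 for diaphragm against skin, in both cases above 0 only without Skin replicate 2 (Lama2 and Lama3, then Lama2), and all genes called ranged over 19 to 105, 74 to 236 and 2 to 58. With Meninges replicates 2 and 3 both left out, an alternative added after seeing the data, which assumes that it varies like the other tissues' libraries, 1 was called for diaphragm against skin (Lama2), among 11, 58 and 82 genes. The causes were not tested.

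Of 510 fold changes (30 results under 17 alternatives), 477 kept their direction and side of the threshold, 18 became called and 15, in 6 results, changed sign, none beyond 0.543. Lama5 for meninges against diaphragm was 0.25 under the replicate block, 0.52 with voom and -0.78 to 0.54 with 1 library left out. Hspg2 was 0.14 with voom and -0.31 to 0.31 in the same comparison, and Nid1 was -0.0481 with Meninges replicate 1 alone and -0.13 to 0.19. For diaphragm against skin, Lamb2 was -0.13 with voom and -0.16 to 0.41 with 1 library left out, and Nid1 -0.0139 to 0.52. Nid2 for meninges against skin was 0.15 with Meninges replicate 1 alone. The median over all genes moved from 0.05 and 0.08 in the meningeal comparisons to 0.21 and 0.28 with voom and to 0.16 and 0.25 under the replicate block. Same-numbered libraries did not deviate together (r -0.0542 to 0.133 over 9 pairs), so the numbers were not taken as pairs.

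With the longest transcript or, added after seeing the data in place of RefSeq protein lengths (not run), the longest coding length, the mean Lamb1 share was 27.8% or 27.9% in meninges, 63.7% or 63.9% in diaphragm and 57.4% or 57.0% in skin. By coding length the Lama4 share in skin was 98.1% and the Nid1 share in meninges 86.8%. The order of the libraries by the ratio of Lamb1 to Lamb2 cannot change with the length, which scales all libraries alike, and so was not checked by it.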
